A study of Macaca mulatta with 39 samples.

Results

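TD31 and TB31 are cultures of fibroblasts grown out of separate teratomas of the same rhesus macaque embryonic stem cell (ESC) line, and both express genes of embryonic skeletal muscle. The comparison sets the 3 arrays TD31a, TD31b and TD31c against the 2 arrays TB31a and TB31b, which are 5 of the 39 arrays of the study. The arrays were chosen from measured values, namely the high signals of muscle genes such as MYH3 in both cultures. The remaining array of that culture, labelled TB31c, was left out because its profile was that of a skin culture. The study measured messenger RNA in 2 ESC lines, 8 teratoma cultures and 3 skin fibroblast cultures, with 3 arrays for each source. TD31 came from the 4th teratoma and TB31 from the 2nd teratoma of the male line C3106, and the remaining teratomas of that line gave the cultures TA31, TC31 and TE31, called sister cultures here. All of these teratomas were raised by injecting the ESCs into mice with a weakened immune system, and no treatment or genetic change separates the groups. Each culture stands for a single teratoma, so a difference between the cultures is a difference between a pair of tumour explants. Whether mouse cells were carried into the cultures was not tested.

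A teratoma is a mixed tumour in which stem cells differentiate into tissues of all germ layers, so that explants of different pieces can start from different tissues. Skeletal muscle forms from progenitors that switch on the transcription factors MYF5 and MYOD1 and then build sarcomeres, at first with embryonic myosin, embryonic and slow troponins and cardiac actin. Fibroblasts, in turn, keep patterns of HOX and other patterning genes that differ with the body region they come from. Desmosomes are adhesion plaques in which the cadherins desmoglein and desmocollin are tied through plakoglobin, plakophilins and desmoplakin to intermediate filaments. They are best known from epithelia and heart muscle.

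The values are log2 signals, so a difference of 1 stands for a doubling of the signal, and differences are given as TD31 minus TB31. A gene was called different at a log2 difference of at least 1 in size with an adjusted p under 0.05 (limma, Benjamini-Hochberg over 14132 genes). Each p-value covers only the spread between arrays of a culture. The design text names the arrays biological triplicates, but nothing says that they came from separately grown cells. Fewer cells of a type and less RNA per cell cannot be told apart in such samples.

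The arrays of each culture were close to one another. Between any pair of TD31 arrays 2 to 19 genes differed by 1 or more, and between TB31a and TB31b 3 genes did, while any TD31 array differed from any TB31 array at 510 to 583 genes. The array labelled TB31c differed from TB31a at 1170 genes and from TB31b at 1196 genes. It differed from the skin array M106p1b at 0 genes by that measure, and its MYH3 signal of 7.03 stood against 12.25 and 12.12 in TB31a and TB31b. The skin-labelled array M106p1f was within 1 of TD31c at every gene, and differed from TD31a at 8 genes and from TD31b at 1 gene. The 3′ to 5′ gap of the actin control, which widens in degraded RNA, was 0.20, 0.38 and 0.11 in TD31a, TD31b and TD31c, against 0.32 and 0.15 in TB31a and TB31b, so these ranges overlapped.

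Both cultures, labelled as fibroblasts, had high signals of fibroblast matrix genes. COL1A2, a chain of type I collagen, had log2 signals of 13.79, 13.87 and 13.82 in the TD31 arrays, against 13.76 and 13.74 in the TB31 arrays. LUM, a collagen-binding proteoglycan, had signals of 12.52, 12.56 and 12.44 in TD31, against 12.89 and 12.83 in TB31. Neither matrix gene was called, nor were the fibroblast markers DCN and COL1A1. The fibroblast marker FAP averaged 9.6 in TD31 and 11.26 in TB31 and was called lower. PRRX1, also a fibroblast marker, averaged 10.45 in TD31 and 11.28 in TB31, a difference under the limit of size. The pluripotency gene POU5F1 was at 4.75 to 4.81 in TD31, against 4.57 and 4.72 in TB31, and the epithelial gene EPCAM was at 2.74 to 2.81 in TD31, against 2.72 in both TB31 arrays. Both are at the low end of the signal range of the arrays, which ran from 2.11 to 14.18.

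Of the 34 measured muscle genes of the list that led to the choice of the cultures, 29 differed by less than 1. The median difference was -0.18, and the list mean was lower in every TD31 array than in both TB31 arrays. Their values are given as a description. MYH3, the myosin heavy chain of embryonic muscle, had log2 signals of 11.72, 11.91 and 11.77 in the TD31 arrays, against 12.25 and 12.12 in the TB31 arrays, and no sister array exceeded 7.56. ACTC1, the cardiac actin that is also made in embryonic skeletal muscle, lay at 12.61, 12.45 and 12.49 in TD31, against 12.58 and 12.74 in TB31. MYL1, a fast-fibre myosin light chain, lay at 10.97, 10.87 and 10.93 in TD31, against 11.03 and 10.90 in TB31. For ACTC1 and MYL1 the arrays of the cultures overlapped, and for MYH3 the TD31 arrays were lower by a mean of 0.38. CHRNA1, a subunit of the muscle acetylcholine receptor, lay at 10.52, 10.05 and 10.07 in TD31, against 9.65 and 10.03 in TB31. TNNT2, the cardiac and embryonic troponin T, lay at 10.22, 10.33 and 10.51 in TD31, against 10.39 and 10.52 in TB31. Other bright genes of the list, KLHL41, TNNC1, TNNI1, ACTN2, LDB3 and MYL4, which encode sarcomere proteins or, for KLHL41, a regulator of sarcomere assembly, differed by -0.77 (MYL4) to -0.11 (ACTN2). Not all of them marked the muscle cultures. KLHL41 lay at 10.87 in TB31c and at 10.97 and 11.07 in the skin arrays M106p1b and M106p1e. TNNC1 reached 10.61 in the skin array M088a, and at LDB3 TD31 lay within the sister arrays.

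Of the 42 genes of the embryonic muscle list 34 were measured, and 29 of them differed by less than 1 between the cultures. In 22 genes every array of both cultures lay above all 9 arrays of TA31, TC31 and TE31. Over all genes tested that held for 187 of 13623 uncalled genes, 6 of 242 called higher and 6 of 267 called lower. The count of 22 is a description, since muscle genes chose the cultures. For 3 genes of the list the TB31 arrays alone lay above all sister arrays, and for 9 genes neither culture did. The mean log2 signal over the list was 8.09 to 8.15 in TD31 arrays, against 8.42 and 8.43 in TB31 arrays, and 6.12 to 6.49 in the sister arrays. The array labelled TB31c had a list mean of 6.49. Among the 8 teratoma cultures the MYH3 means ran in the order TB31 (12.18), TD31 (11.80), TA38 (10.22), TB38 (9.53) and TC31 (7.25), with the other 3 cultures below, so that cultures of the female line C3806 also reached high levels.

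**Figure D1:**
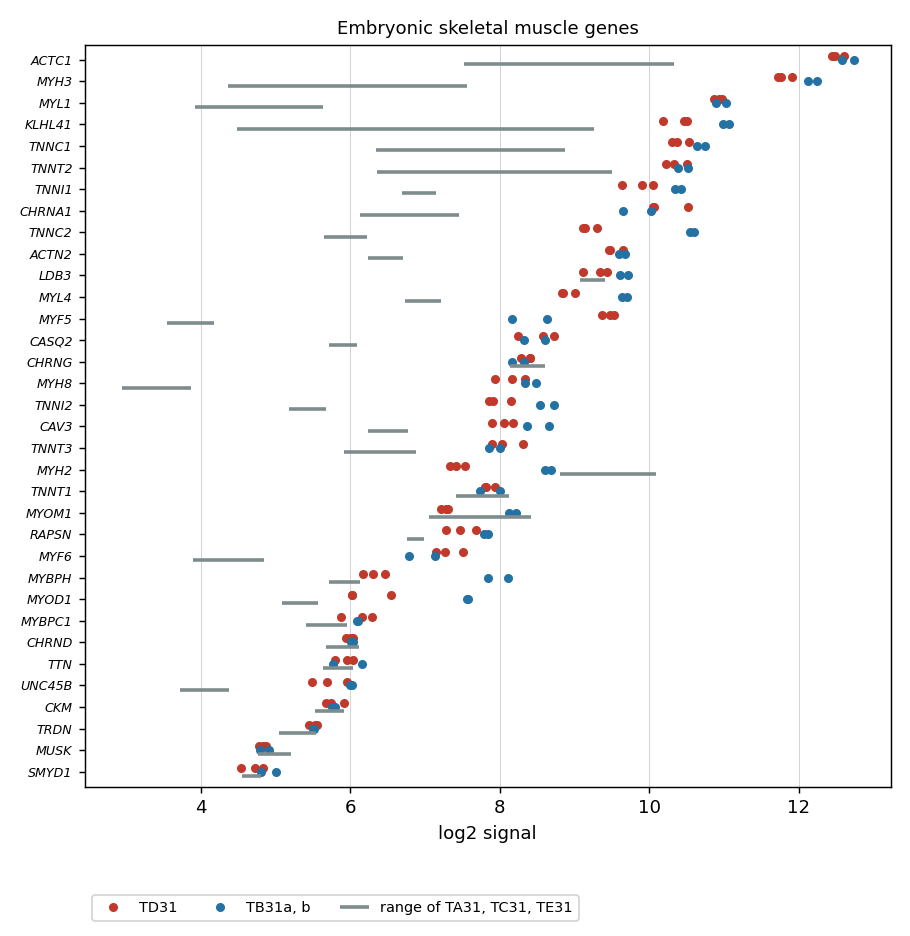
Log2 signal (horizontal axis) of each measured gene of the embryonic muscle list (vertical axis), with 1 dot per array for TD31 (red) and TB31a and TB31b (blue) and a grey bar from the lowest to the highest of the 9 sister arrays. Red and blue dots lie close together and right of the grey bar for most genes, and MYBPH, TNNC2, MYOD1 and MYH2 are lower in TD31 while MYF5 is higher.

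A total of 5 muscle genes differed by 1 or more, or 14.7% of those measured against 3.60% of all genes. They included the transcription factors that start the muscle programme. MYF5, the earliest of these factors, had log2 signals of 9.47, 9.37 and 9.53 in the TD31 arrays, against 8.17 and 8.63 in the TB31 arrays, a difference of 1.06 that was under 1 without TB31a. MYOD1, a factor of the same family that can turn fibroblasts into muscle, lay at 6.02, 6.02 and 6.54 in TD31, against 7.56 and 7.58 in TB31, a difference of -1.37. So the cultures differed in opposite directions at this pair of factors, and no TD31 array overlapped a TB31 array at either gene. TNNC2, the calcium-binding troponin of fast fibres, lay at 9.14, 9.12 and 9.30 in TD31, against 10.55 and 10.60 in TB31. MYBPH, a myosin-binding protein, lay at 6.17, 6.30 and 6.47 in TD31, against 8.11 and 7.84 in TB31. MYH2, a myosin heavy chain of adult fast fibres, lay at 7.54, 7.33 and 7.41 in TD31, against 8.69 and 8.61 in TB31. The last of these is no marker of the muscle cultures on these arrays, since the array labelled TB31c, with a skin profile, had the signal 11.20 and the sister arrays lay above both cultures. MYOG and DES were not analysed here.

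From the list of muscle progenitor and fusion genes 0 of 13 rose and 2 fell in TD31, or 15.4% called against 3.60% of all genes. MET, the receptor that guides migrating muscle progenitors, fell by 1.83 (SE 0.14, limma adjusted p = 1.35e-07), with signals of 8.24, 8.68 and 8.23 in TD31, against 10.25 and 10.18 in TB31. Its brightest other probe set differed by -0.45. MEF2C, which works with the MYOD1 family, had signals of 8.26, 8.13 and 7.93 in TD31, against 9.10 and 9.11 in TB31. Its difference sat at the limit of 1, and it was under that limit with TB31c included (-0.96) and without TD31c (-0.91) and was also not called without TB31b.

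Across all genes 242 were higher and 267 lower in TD31 than in TB31, which is 3.60% of 14132 genes called, 1.71% higher and 1.89% lower. All genes with a difference of 1 or more were called, and in none of them did the arrays of the cultures overlap. Over all genes the arrays did not overlap in 43.6%, with every TD31 array above in 21.1% and below in 22.5%. At a difference of 2 or more there were 56 genes higher and 48 lower. The median difference over all genes was -0.01 and the median SE was 0.11. With TB31c counted as a TB31 array 249 genes were called higher and 264 lower, of which 177 and 200 were among those called without it. Here and wherever TB31c is included below, the TB31 mean combines TB31a and TB31b with an array of a skin profile.

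**Figure D2:**
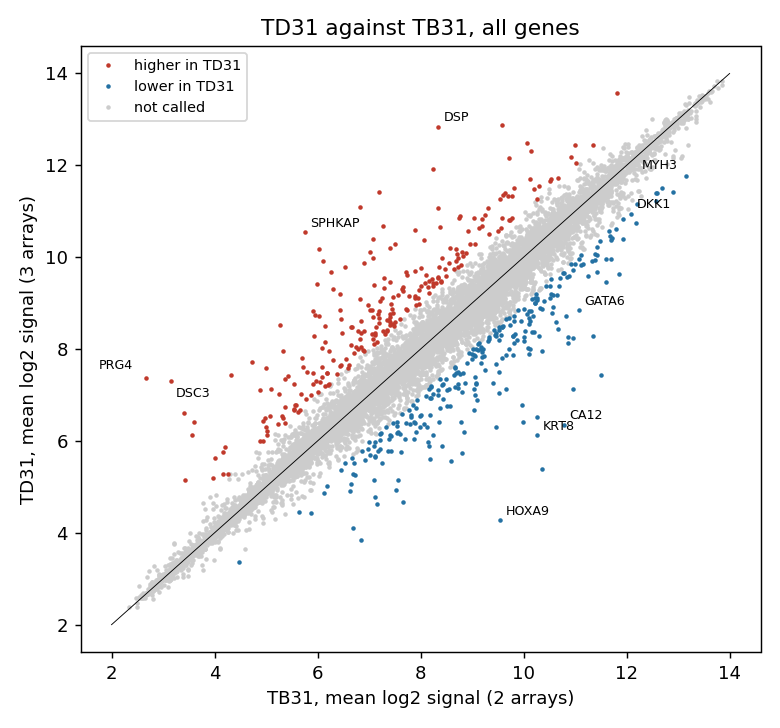
Mean log2 signal of each of the 14132 genes in TD31 (vertical axis, 3 arrays) against TB31 (horizontal axis, 2 arrays), with the 242 genes called higher in TD31 in red, the 267 called lower in blue and the rest in grey. The line marks equal signal, and MYH3 lies close to it while DSP, SPHKAP, PRG4 and DSC3 lie far above it and HOXA9, KRT8 and CA12 far below.

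The genes given as marks of the difference between these cultures were DSP, DSC3, GATA6 and DKK1, and their values are a description, since they were named with the data known. DSP, which encodes desmoplakin (chromosome 4), had log2 signals of 12.77, 12.91 and 12.84 in the TD31 arrays, against 8.24 and 8.44 in the TB31 arrays, a difference of 4.50. Its level in TD31 was above every sister array, which ran from 3.84 to 11.86, and its level in TB31 lay within them. The culture means fell into the order TD31 (12.84), TC31 (11.79), TA31 (9.97), TB31 (8.34) and TE31 (4.12) within line C3106. DSC3, which encodes desmocollin 3 (chromosome 18), lay at 7.15, 7.56 and 7.22 in TD31, against 3.16 and 3.15 in TB31, a difference of 4.16, and the sister arrays ran from 2.97 to 5.00. A second probe set of DSC3 differed by 1.52, with means of 4.29 in TD31 and 2.77 in TB31. On both probe sets the TB31 signals of DSC3 sat at the low end of the arrays' range, whose lowest value was 2.11.

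GATA6, a transcription factor of endoderm and heart (chromosome 18), had log2 signals of 8.70, 8.95 and 8.90 in the TD31 arrays, against 11.13 and 11.04 in the TB31 arrays, a difference of -2.23. The sister arrays ran from 10.17 to 10.75, so TD31 lay below all of them and TB31 above all of them. DKK1, a secreted WNT antagonist (chromosome 9), lay at 10.78, 11.02 and 11.06 in TD31, against 12.10 and 12.08 in TB31, a difference of -1.14. Both cultures had a high DKK1 signal, and TD31 was below all sister arrays, which ran from 11.77 to 12.29.

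**Figure D3:**
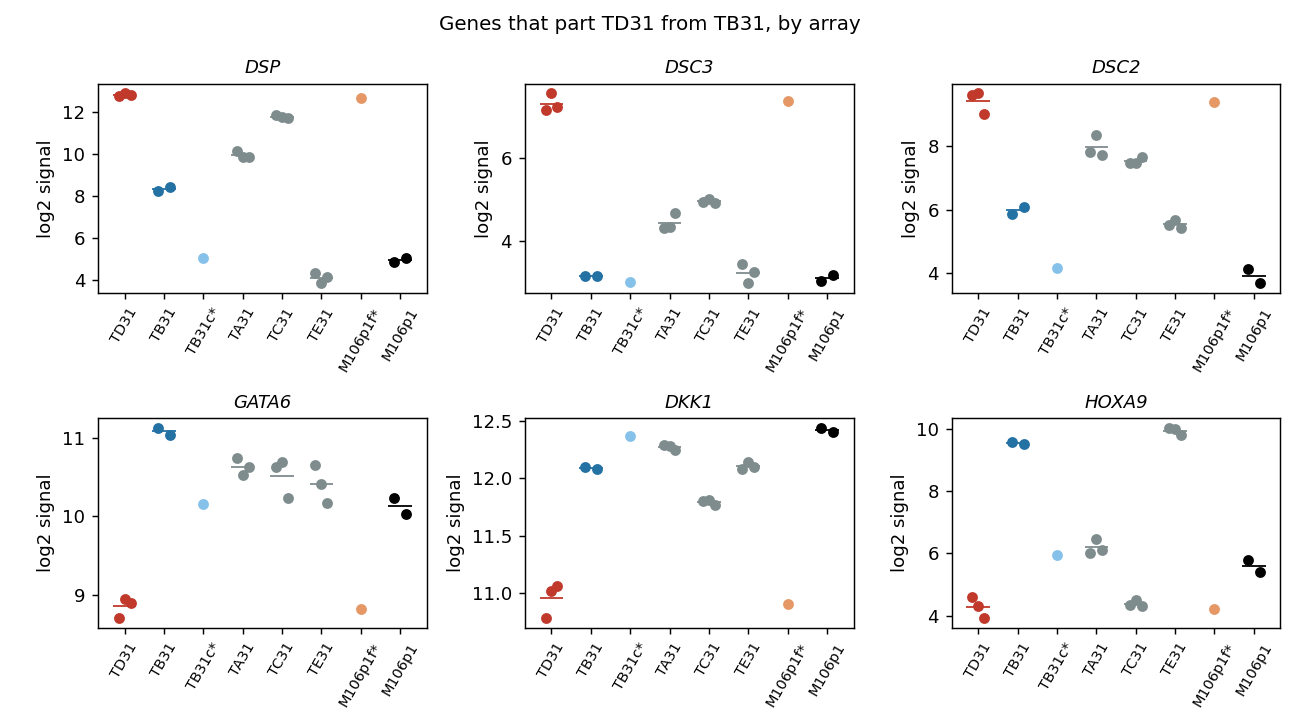
Log2 signal (vertical axis, a separate range in each panel) by array for the 4 marks of the difference and for DSC2 and HOXA9, with dots for arrays, lines for culture means, and asterisks on the arrays labelled TB31c and M106p1f, which are drawn apart from their cultures. TD31 is highest among the cultures of line C3106 for DSP, DSC3 and DSC2 and lowest for GATA6 and DKK1, and M106p1f lies at the TD31 level in each panel.

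Desmosome genes split into a high group and a group with no called difference. Of 14 listed genes 12 were measured, 3 were higher in TD31 (DSP, DSC3 and DSC2) and 0 lower. That is 25% called against 3.60% of all genes, while the list's median difference was 0.04, near the -0.01 of all genes. DSC2, the most widely made desmocollin (chromosome 18), rose by 3.43 (SE 0.20, limma adjusted p = 7.08e-09). Its signals were 9.58, 9.65 and 9.00 in the TD31 arrays, against 5.86 and 6.09 in the TB31 arrays. The TD31 arrays were above all sister arrays, which reached 8.35. PKP4, a plakophilin-related protein, was higher by 0.46 in TD31, under the limit of size, and the TD31 arrays were above all sister arrays, which reached 9.77. JUP, the gene of plakoglobin, differed by -0.36 (adjusted p = 0.141). DSG2, the desmoglein of non-epidermal tissue, differed by 0.10 on the probe set used and by 2.84 on another of its 3 other probe sets. DSG1, DSG3, PKP1 and PKP3, which epidermis makes, each differed by at most 0.15 in size.

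Other epithelial genes were called in both directions, 5.56% of the epithelial adhesion list and 25% of the keratin and keratinocyte list, against 3.60% of all genes. Of 18 epithelial adhesion genes 1 rose and 0 fell, with a median difference of -0.02. That gene was CLDN1, which seals tight junctions, with signals of 8.21, 8.06 and 8.07 in TD31, against 7.01 and 7.19 in TB31. Its rise of 1.01 was 0.92 without TB31a and 0.96 without TD31a, and another probe set differed by 0.16. Of 12 measured keratin and keratinocyte genes 1 rose and 2 fell. KRT8, the type II keratin of simple epithelia, fell by 4.14 (SE 0.17, limma adjusted p = 2.04e-10), with signals of 6.06, 5.80 and 6.52 in TD31, against 10.12 and 10.42 in TB31. KRT7, another keratin of simple epithelia, fell by 1.73, with 9.60, 10.01 and 10.26 in TD31, against 11.68 and 11.70 in TB31. KRT18, the partner of KRT8 in filaments, rose by 1.51, with 8.37, 8.51 and 8.18 in TD31, against 6.86 and 6.83 in TB31, but its brightest other probe set differed by 0.17. TP63, the regulator of stratified epithelia, differed by 0.00 on the probe set used and by 1.62 on another of its 5 other probe sets.

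The largest rises in TD31 were spread over genes of several kinds, with SPHKAP at the top. SPHKAP, an anchor of protein kinase A, rose by 4.80 (SE 0.13, limma adjusted p = 6.77e-12), with log2 signals of 10.69, 10.35 and 10.61 in TD31, against 5.69 and 5.80 in TB31. PRG4, the joint lubricant lubricin, rose by 4.71 (SE 0.21), with 7.73, 7.48 and 6.88 in TD31, against 2.69 and 2.62 in TB31. At PRG4 the TB31 signals sat near the lowest value of the arrays, while every TD31 array was above all sister arrays, which reached 4.93. ABLIM1, an actin-binding protein, rose by 4.26, and its other probe set differed by 1.45. PCDH20, a protocadherin, rose by 4.15, with 10.27, 10.24 and 10.01 in TD31, against 5.98 and 6.06 in TB31. With TB31c included, whose PCDH20 signal was 11.87, the difference was 2.20 and was no longer called (adjusted p = 0.233). SDC2, a cell-surface heparan sulfate proteoglycan, rose by 3.81, and its other probe sets differed by 3.52 and 3.60.

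CRABP1, which binds retinoic acid in the cytoplasm, rose by 3.69, with log2 signals of 11.69, 11.95 and 12.16 in TD31, against 8.22 and 8.27 in TB31. ECRG4, a secreted peptide precursor, was among the brightest of all, with 12.81, 12.80 and 13.01 in TD31, against 9.55 and 9.64 in TB31. PI16, a peptidase inhibitor known from a class of fibroblasts, rose by 3.40, with 10.40, 10.53 and 11.06 in TD31, against 7.37 and 7.17 in TB31. All TD31 arrays were above every sister array at these 3 genes. ABI3BP, a matrix protein, rose by 3.41, and OMD, a small leucine-rich proteoglycan of bone and tendon, rose by 3.25. ENPP2, the enzyme autotaxin that makes lysophosphatidic acid, rose by 3.32, but TE31 reached 11.48, above TD31, and with TB31c included it differed by 1.97 and was not called. LOC711061 rose by 4.23 and is known here by that identifier alone. Adjusted p over these largest rises ran up to 2.4e-08, for ABI3BP.

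The largest falls were led by HOXA9, described below with its family, and by PLAC8. PLAC8, a small cysteine-rich protein, fell by 4.95 (SE 0.18, limma adjusted p = 6.06e-11), with log2 signals of 5.17, 5.44 and 5.58 in TD31, against 10.27 and 10.42 in TB31. CA12, a membrane carbonic anhydrase, fell by 4.44 (SE 0.12), with 6.28, 6.41 and 6.34 in TD31, against 10.79 and 10.78 in TB31. Both genes lay below every sister array in TD31, and the 3 other probe sets of CA12 differed by -4.24, -4.03 and -2.91. RARRES1, a retinoic acid response gene, fell by 4.08 (-3.61 on its other probe set), and TB31 was above all sister arrays and TD31 below all of them. SLC16A3, a lactate exporter, fell by 3.82, with 6.53, 7.31 and 7.55 in TD31, against 10.93 and 10.96 in TB31.

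CAPN6, a calpain without protease activity, fell by 3.58, and CD24, a glycosylated surface protein, fell by 3.07. COLEC12, a scavenger receptor, fell by 2.99 and ADAMDEC1, a metalloprotease, fell by 2.98. ADAMDEC1 had signals of 3.88, 3.88 and 3.80 in TD31, against 6.78 and 6.89 in TB31, and the sister arrays, which reached 4.28, were all at the TD31 level. GJA5, the gap junction protein connexin 40, fell by 3.02, while its brightest other probe set differed by -0.32. The adjusted p of these largest falls ran up to 7.79e-08, for SLC16A3.

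**Figure D4:**
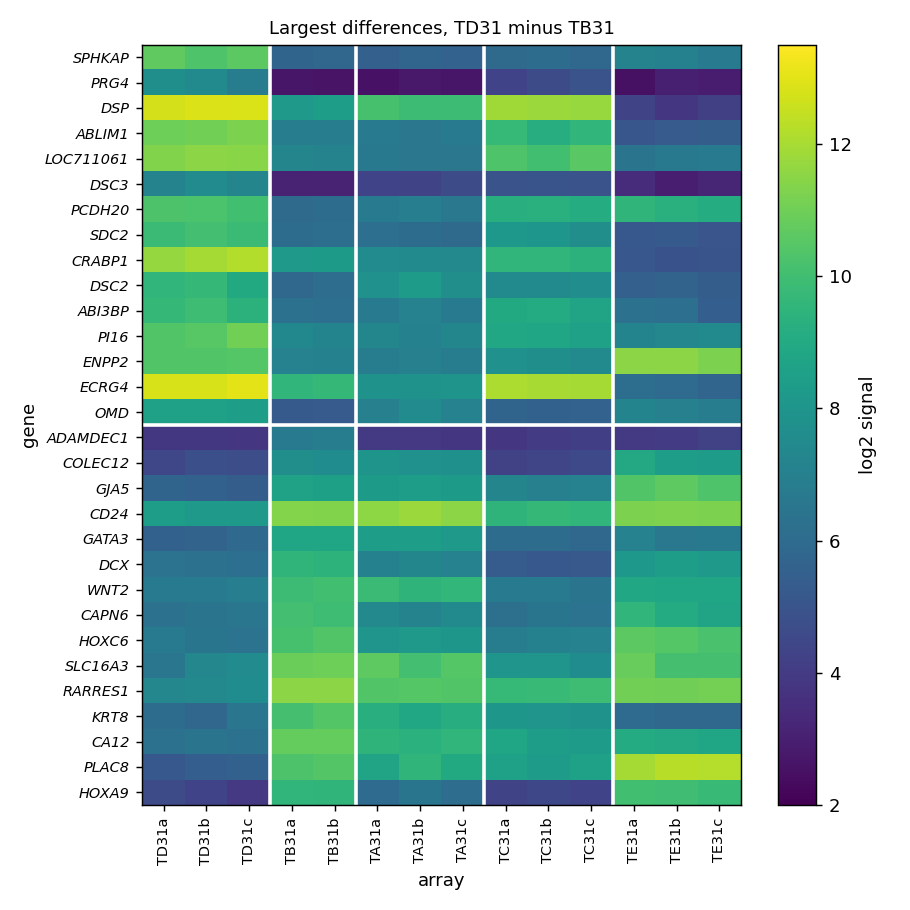
Log2 signal (colour) in each array (columns) of the 15 most strongly raised and the 15 most strongly lowered genes in TD31 against TB31 (lines of the map), with TD31 and TB31 at the left and the sister cultures to their right. DSP, ABLIM1 and ECRG4 are also bright in TC31, PLAC8 is brightest in TE31, and SPHKAP is bright in TD31 alone among these cultures.

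HOX genes, which record position along the body axis, were lower in TD31 wherever they were called. Of 39 listed genes 26 were measured, 0 rose and 7 fell, or 26.9% of those measured against 1.89% of all genes, with a median difference of -0.30. HOXA9 (chromosome 3) fell by 5.25, the largest fall of all genes (SE 0.17, limma adjusted p = 1.78e-11), with log2 signals of 4.61, 4.32 and 3.92 in the TD31 arrays, against 9.56 and 9.51 in the TB31 arrays. Its culture means within line C3106 were 4.28 in TD31 and 4.39 in TC31 at the low end, 6.19 in TA31, and 9.54 in TB31 and 9.93 in TE31 at the high end. TD31 overlapped TC31 in this order, and TB31 lay below TE31.

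HOXA5 fell by 2.64, with 6.40, 6.0 and 6.19 in TD31, against 8.80 and 8.88 in TB31. HOXA3 fell by 2.37, with 6.36, 6.45 and 6.41 in TD31, against 8.76 and 8.79 in TB31. At both genes TB31 was above every sister array, and the TD31 mean was within their range. HOXC10 fell by 1.56, with 5.80, 5.84 and 5.74 in TD31, against 7.32 and 7.40 in TB31, and there too TB31 stood above all sister arrays. HOXA7 fell by 1.44 and HOXA10 fell by 1.19. HOXC6 fell by 3.75 on the probe set used, with 6.69, 6.49 and 6.38 in TD31, against 10.15 and 10.39 in TB31, while its 3 other probe sets differed by 0.00, -1.29 and -0.65. The other probe set of HOXA3 differed by 0.02.

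The calls came from the HOXA and HOXC clusters. All measured HOXB genes differed by at most 0.22 in size, and HOXD genes by -0.76 (HOXD9) to 0.11 (HOXD10) on the probe sets used. HOXD10 had other probe sets that differed by -3.18 and -2.01, so its difference depended on the probe set. MEIS1, a homeodomain partner of HOX proteins that was chosen after its values were seen, fell by 2.37 (limma adjusted p = 6e-09), with 6.48, 6.84 and 6.69 in TD31, against 9.03 and 9.05 in TB31. MEIS2, of the same family, fell by 2.15 (adjusted p = 1.78e-08), with 7.46, 7.33 and 6.99 in TD31, against 9.42 and 9.40 in TB31. For both partners every TD31 array was below all sister arrays, and the TB31 arrays lay within them.

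**Figure D5:**
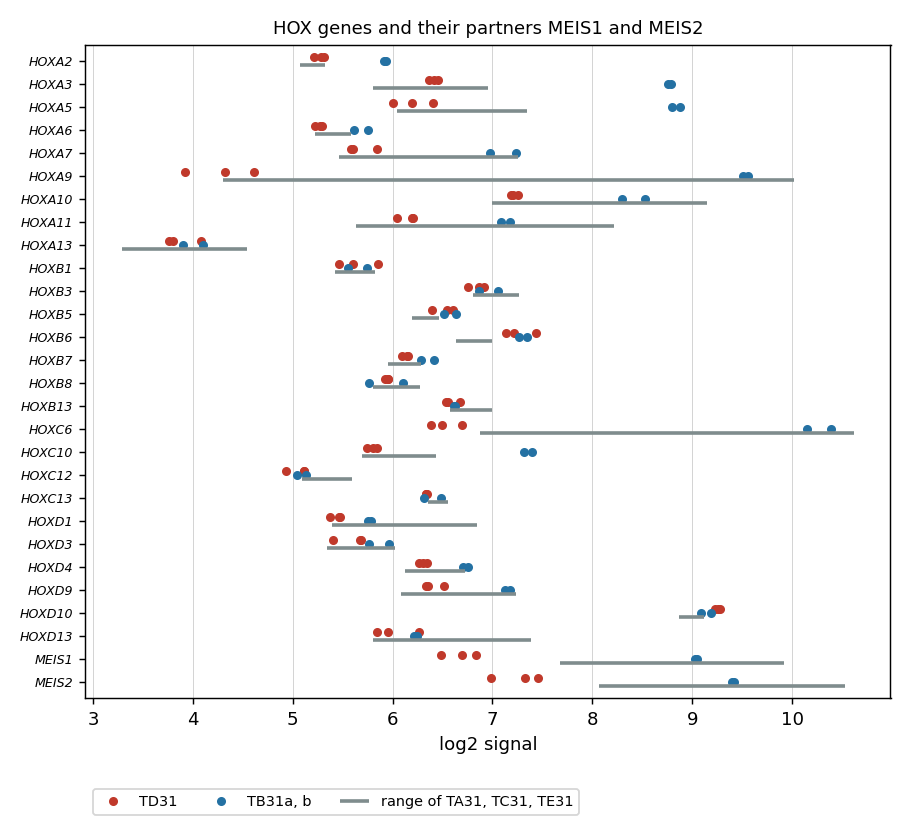
Log2 signal (horizontal axis) of the 26 measured HOX genes and of MEIS1 and MEIS2 (vertical axis), with 1 dot per array for TD31 (red) and TB31a and TB31b (blue) and a grey bar from the lowest to the highest sister array. The red dots lie well left of the blue dots at HOXA3, HOXA5, HOXA9, HOXC6, HOXC10, MEIS1 and MEIS2, and the dots lie together across HOXB.

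Other patterning genes differed both ways. Of 44 limb and mesenchyme patterning genes 2 rose and 2 fell, or 9.09% called against 3.60% of all genes, with a median difference of 0.06. FOXC1, a forkhead factor of head and body mesenchyme, rose by 1.57 and by 1.65 on its other probe set, with 11.80, 11.73 and 11.58 in TD31, against 10.12 and 10.15 in TB31. FOXC2, its close relative, rose by 1.21, and for both FOXC genes TD31 was above all sister arrays. TBX3, a limb T-box factor, fell by 1.75, and SHOX2, a limb and heart homeobox gene, fell by 1.51, but their brightest other probe sets differed by -0.56 and -0.41. PRRX1, a limb mesenchyme homeobox gene and fibroblast marker, was lower by 0.83 (adjusted p = 2.42e-05), under the limit of size.

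In the list of GATA, endoderm and heart regulators 1 of 19 genes rose and 3 fell, GATA6 among them. That is 21.1% called against 3.60% of all genes, with a median difference of 0.03. GATA3, a factor of ectoderm, kidney and T cells, fell by 3.08 (SE 0.15, limma adjusted p = 8.45e-10), and its other probe set differed by -2.98. Its signals were 5.57, 5.66 and 5.95 in TD31, against 8.79 and 8.82 in TB31, and TB31 was above all sister arrays. GATA2 differed by -0.01 and GATA4 by 0.03, so within the GATA family the called differences were at GATA3 and GATA6. ISL1, a factor of heart progenitors and motor neurons, rose by 1.01, and by 0.91 without TB31a and 0.79 without TD31a. The endoderm markers SOX17, FOXA2 and AFP differed by 0.23, 0.11 and 0.17 and none was called.

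The called WNT pathway genes included ligands, their enhancers, their antagonists and a receptor. Of 44 measured genes 5 rose and 3 fell, or 18.2% called against 3.60% of all genes, with a median difference of 0.00. Among the ligands WNT2B rose by 2.74, with log2 signals of 9.08, 9.27 and 9.21 in TD31, against 6.51 and 6.37 in TB31, and its other probe set differed by 0.93. WNT2, a canonical ligand, fell by 3.19 (SE 0.13, limma adjusted p = 1.29e-10), with 6.72, 6.68 and 6.94 in TD31, against 9.89 and 10.04 in TB31. These paralogous ligands thus differed in opposite directions.

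The R-spondins, which strengthen WNT signals by protecting the receptors, were higher in TD31. RSPO2 rose by 3.25 (SE 0.11, limma adjusted p = 2.22e-11), with 9.82, 9.94 and 9.56 in TD31, against 6.62 and 6.44 in TB31. RSPO3 rose by 2.97 (SE 0.13, adjusted p = 3.27e-10), with 9.90, 10.08 and 9.66 in TD31, against 6.93 and 6.89 in TB31. At both R-spondins TD31 was above every sister array, and at RSPO3 TB31 was below every one of them. Their receptor LGR5 was at a high signal in both cultures and higher in TD31 by 0.43, under the limit of size.

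Among secreted WNT antagonists, WIF1 rose by 2.81, with 6.81, 6.01 and 6.45 in TD31, against 3.41 and 3.81 in TB31. SFRP1 fell by 1.46, and its other probe sets differed by -1.82 and -2.21, with 10.63, 10.87 and 10.71 in TD31, against 12.25 and 12.14 in TB31. SFRP2 was lower by 0.73, under the limit, and DKK1 was lower as given above. Of the receptors, LRP6, the co-receptor of canonical WNT signals, rose by 1.41 and was chosen after its values were seen. AXIN2, a common target of the pathway that was also named outside the rule for named genes, differed by -0.66, under the limit of size.

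Growth factor genes of the TGF-beta and FGF families included a few called members. Of 33 genes of the TGF-beta, activin and BMP list 3 rose and 2 fell. That is 15.2% called against 3.60% of all genes, with a median difference of -0.02. INHBA, the subunit of activin A, fell by 2.21, with 9.91, 9.66 and 9.35 in TD31, against 11.86 and 11.85 in TB31, and its other probe set differed by -1.98. BMP4, a ligand of mesoderm and limb patterning, rose by 1.43, with 9.82, 9.61 and 9.90 in TD31, against 8.41 and 8.29 in TB31. TGFBR3, the co-receptor betaglycan, rose by 1.47, and by 1.32 and 1.48 on its other probe sets. BAMBI, a decoy receptor, fell by 1.22, but differed by -0.27 with TB31c included. ID4, a common target of BMP signals, rose by 1.08. Of 22 FGF genes 2 rose and 0 fell, or 9.09% called. FGF18 rose by 1.81 and by 1.07 on its other probe set, while FGFR3 rose by 1.62 on the probe set used and differed by 0.00 on the other.

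Smooth muscle genes were lower in TD31 where they were called. Of 15 measured genes 0 rose and 5 fell, or 33.3% against 1.89% of all genes, and the list's median difference of -0.61 stood against -0.01 for all genes. CNN1, a calponin of smooth muscle, fell by 2.60 (SE 0.20, limma adjusted p = 2.1e-07), with 7.82, 8.29 and 8.67 in TD31, against 10.86 in both TB31 arrays. KCNMB1, a potassium channel subunit of smooth muscle, fell by 1.20, with 8.32, 8.51 and 8.74 in TD31, against 9.73 in both TB31 arrays. At both genes TD31 was below every sister array. SYNPO2, an actin-bundling protein, fell by 1.57 on the probe set used and differed by 0.08 on the other, which is the brighter of the pair within the 5 arrays. TGFB1I1 and PDLIM7, LIM proteins of focal adhesions and actin filaments, were also called, TGFB1I1 with a difference of -1.13 and PDLIM7 at the limit of 1. Both had their lowest signal in TD31a, and without TD31a they differed by -0.88 and -0.83 and were not called. TGFB1I1 was also not called without TB31a (-1.14) or TB31b (-1.12), and PDLIM7 not without TD31b (-0.97) or TB31b (-0.94) or with TB31c included (-0.73). The broad contractile genes TAGLN, TPM1 and CALD1 differed by -0.22 to -0.17 from high signals. The mean over the list was 10.04, 10.26 and 10.35 in TD31a, TD31b and TD31c, against 10.99 and 10.96 in TB31a and TB31b. The sister arrays ran from 10.37 to 11.42 by that mean, so TD31a and TD31b lay below all of them, while TD31c was nearly level with the lowest.

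Matrix genes showed rises of less abundant collagens beside type I collagen, for which no difference was called. Of 32 collagens 4 rose and 0 fell, or 12.5% called against 3.60% of all genes, with a median difference of 0.04. COL15A1, a collagen of basement membrane zones, rose by 1.65, with 11.33, 11.41 and 11.29 in TD31, against 9.67 and 9.71 in TB31, and by 0.37 on its other probe set. COL14A1, which coats collagen fibrils, rose by 1.08, while its brightest other probe set differed by 0.10. COL21A1 rose by 1.10 (0.95 without TB31a), and COL10A1, known from growth-plate cartilage, by 1.07 (0.99 without TB31b). COL1A1 and COL5A2, from high signals, differed by -0.33 and -0.08 and neither was called. Of 42 other matrix genes 3 rose and 4 fell, or 16.7% called, with a median of 0.04. THBS4, a tendon and muscle thrombospondin, rose by 2.05, and TNXB, a tenascin, by 1.32, though the brightest other probe set of TNXB differed by 0.11. TGFBI, a TGF-beta-induced matrix protein, fell by 1.40, with 11.58, 11.88 and 11.82 in TD31, against 13.19 and 13.13 in TB31. MATN2, a matrilin, fell by 1.45, but differed by -0.56 with TB31c included. EMILIN1, an elastic-fibre protein, fell by 1.79 with the largest error of all called genes (SE 0.46, adjusted p = 0.0126), and it was not called without TD31a (-1.46), TB31a (-1.75) or TB31b (-1.84).

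Proteases and their inhibitors held called genes in both directions, 5 of 38 higher and 6 lower. That is 28.9% called against 3.60% of all genes, with a median of -0.04. MMP3, stromelysin, rose by 2.04, with 9.44, 9.43 and 9.12 in TD31, against 7.31 and 7.27 in TB31. MMP1, a collagenase, fell by 2.01 (-1.64 on its other probe set), with 7.55, 7.71 and 7.28 in TD31, against 9.55 and 9.49 in TB31. Each culture was thus the higher of the pair at one of these metalloproteases, and both cultures lay below all sister arrays at MMP1. FAP, a fibroblast surface protease, fell by 1.66 (-1.74 on its other probe set), with 9.61, 9.64 and 9.55 in TD31, against 11.29 and 11.23 in TB31. MMP9, a gelatinase, fell by 1.28, and ADAMTS3, a procollagen protease, fell by 1.40, but differed by -0.70 with TB31c included and was then not called. SERPINB2, an inhibitor of plasminogen activators, rose by 1.60, with 5.94, 5.52 and 5.83 in TD31, against 4.21 and 4.12 in TB31. The array labelled TB31c stood at 11.21 for this gene, and with it included the difference was -0.75 and was not called.

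Immune mediators were mostly higher where called. Of 31 cytokine and TNF family genes 4 rose and 1 fell, or 16.1% called against 3.60% of all genes, with a median difference of 0.08. IL33, an alarmin, rose by 3.20 (SE 0.24, limma adjusted p = 1.42e-07), with 6.62, 6.95 and 6.25 in TD31, against 3.44 and 3.37 in TB31. TNFSF15, a TNF family ligand, rose by 2.63, with 7.95, 7.97 and 7.95 in TD31, against 5.25 and 5.40 in TB31. CCL11, the chemokine eotaxin, rose by 1.55, and TNFAIP6, a hyaluronan-binding protein, by 1.14, or 0.75 with TB31c included. At IL33 and CCL11 TB31 was below every sister array and TD31 within them. IL18 fell by 1.27. Among 28 genes of MHC class I and interferon response 2 rose and 0 fell, or 7.14% called. IFITM1, an antiviral membrane protein, rose by 2.42 and by 2.64 on its other probe set, with 12.37, 12.48 and 12.63 in TD31, against 9.98 and 10.16 in TB31. IFIT3 rose by 1.03, or 0.95 without TB31a and 0.96 without TD31a, and its brightest other probe set differed by 0.24. B2M, IFI16 and IFIT2 each differed by at most 0.04 in size.

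Imprinted genes, which are read from a single parental copy, held 2 rises and 1 fall among 13 measured. That is 23.1% called against 3.60% of all genes, with a median of 0.02. DLK1, a Notch-related protein of fetal tissues, rose by 2.73 (SE 0.16, limma adjusted p = 6.97e-09), with 10.88, 11.04 and 11.31 in TD31, against 8.24 and 8.44 in TB31. PEG3, a zinc finger protein, fell by 2.53 (-2.09 on its other probe set), with 5.73, 6.16 and 5.78 in TD31, against 8.47 and 8.37 in TB31. TB31 was above all sister arrays at PEG3, and the array labelled TB31c had 5.43, so with it included the difference was -1.53 and not called. PHLDA2, a growth-restraining gene of placenta, rose by 1.49, or 0.93 with TB31c included, which was not called. H19 and SNRPN differed by -0.12 and 0.06. IGFBP3, an IGF-binding protein, fell by 1.18, with 11.36, 11.40 and 11.78 in TD31, against 12.69 in both TB31 arrays. It was the single call among 20 genes of the IGF axis, or 5%.

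Neural and neural crest genes were called in both directions, 10.5% of the neural and 11.8% of the neural crest list, against 3.60% of all genes. Of 19 neural genes 0 rose and 2 fell, with a median of 0.01. DCX, which binds microtubules in migrating neurons, fell by 3.16, with 6.37, 6.33 and 6.21 in TD31, against 9.51 and 9.42 in TB31, but its other probe set differed by 0.05. With TB31c included DCX differed by -1.79 and was not called. GAP43, a growth cone protein, fell by 2.13, and its other probe set differed by -0.52. The neural markers SOX2, PAX6 and STMN2 differed by -0.02, -0.03 and 0.01. Of 17 neural crest, Schwann cell and melanocyte genes 1 rose and 1 fell. NGFR, the p75 neurotrophin receptor, rose by 2.24, with 9.76, 9.43 and 9.42 in TD31, against 7.08 and 7.50 in TB31, and its other probe set differed by -0.04. TFAP2A, a crest and ectoderm factor, fell by 1.77, with -0.49 on its brightest other probe set. SOX10 and TYR, which define Schwann cells and melanocytes, differed by 0.01 and 0.07.

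Several short lists of other cell types held 0 calls by limma. With 3.60% of all genes called, 0 calls are near that share for lists of this size. None of 17 endothelial, blood and leukocyte genes was called, with 7 at an unadjusted p under 0.05, none of 8 adipocyte genes, with 3, and none of 13 pluripotency genes, with 2. Over all 14132 genes 3598 had an unadjusted limma p under 0.05. Among these lists the pluripotency list held the largest difference, KLF4, a factor that fibroblasts also make, with 0.95 (11.98, 12.10 and 12.03 in TD31, against 11.08 and 11.10 in TB31). Its other probe set differed by 1.23, and it was called with the mean of its probe sets (1.09), with the replicate block (1.01) and with TB31c included (1.38). Of 9 trophoblast genes 1 fell (11.1%), namely TFAP2C, which differed by -1.72, and its other probe set differed by -0.30. Of 20 cartilage, bone and tendon genes 1 fell (5%), namely RUNX2, a master factor of bone. It differed by -2.21 on the probe set used, while its 4 other probe sets differed by -0.40 to 0.11. Of 32 cell cycle genes 1 was called, or 3.12%, near the 3.60% of all genes. It was CCNE2, a cyclin of S-phase entry, which rose by 1.29 and by 1.68 on its other probe set. The cell cycle list had a median of 0.12, and PCNA, a clamp of DNA replication, was higher by 0.48 and TYMS, which makes thymidylate, by 0.32, both under the limit of size. Of 19 cadherin and protocadherin genes 2 rose and 1 fell, or 15.8% called. PCDH20 and PCDH10 rose, the second by 1.88, and by 1.02 with TB31c included, which was not called. CDH13 fell, with -1.40, and -1.25 on its other probe set.

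Beside the 3 sister cultures of the line, either culture could be the one that stood apart. A culture counted as outside where all its arrays lay above, or all lay below, the range of the 9 sister arrays. Of the 242 genes higher in TD31, TD31 alone lay outside in 117. In 44 genes TB31 alone lay outside, in 24 both did, and in 57 neither did. Of the 267 genes lower in TD31 these numbers were 117, 56, 33 and 61. Over all genes tested TD31 alone lay outside in 6.96% and TB31 alone in 8.06%. These shares are descriptive, since a gene with a large difference is more likely to have a culture outside any range.

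The distance between TD31 and TB31 was in the middle of the distances within the line. The means of TD31 and TB31 were apart by 1 or more at 509 genes. TD31 was nearer to TC31 (353 genes) than to TB31, and farther from TA31 (606) and TE31 (1012). TB31 was nearer to TA31 (275 genes) and to TC31 (476) than to TD31, and farther from TE31 (714). So neither of these muscle-expressing cultures had the other as its nearest culture by this count. At the 509 called genes the TC31 arrays were nearer to TD31 in 284 to 291, the TE31 arrays in 150 to 169 and the TA31 arrays in 104 to 121.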

How the data were processed

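The deposited values are log2 signals of 39 single-colour arrays, 1 per probe set, made by the authors with GCOS and RMA, per the submitters' processing notes, with versions and settings not given in the sources used here. RMA corrects background and makes the arrays' distributions alike, so differences are relative to all probe sets, and array medians ran from 6.25 to 6.48. Of 52865 probe sets 24969 had 1 gene symbol in the platform annotation, 361 several and 27535 none. After removal of controls, 14132 genes remained, each read from its probe set of highest average signal across the 39 arrays, and 6375 genes had more than 1. Chromosomes came from RefSeq (T2T-MMU8v2.0) for 13945 genes. No depth applies to arrays, and their number limits the precision.

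TD31 was compared with TB31 in limma 3.58.1 (R 4.3.3) on 14 arrays of the 5 cultures of the line without TB31c, with 9 residual degrees of freedom, two-sided, with Benjamini-Hochberg adjustment. The fit was run on simulated data, where 100% of genes changed by 1.5 or 2 were recovered with 0 false calls. These sizes lie above the limit of 1, so the run did not test differences near the limit. It could not address the spread between teratomas either. The members and the 28 gene lists were chosen with earlier results of these data known. Named genes were the 4 marks, the 15 largest rises and falls, up to 12 of the brightest muscle genes, and by each other list up to 6 called and 3 bright uncalled genes. The other muscle genes are described with the whole list, and the counts of named called genes leave them out. Others are said to be chosen after their values were seen, or are defining markers of cell types. HOXA10, HOXD9, DSG1, PKP1 and PKP3 were also named outside that rule, each with its list. Alternatives covered the arrays fitted, the probe set, a limit on dim genes, centring, the variance model, the fold limit, the replicate block and each array left out.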

Additional observations from a re-analysis of the deposited data

Results flagged for a closer look

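The array labelled M106p1f, a skin fibroblast sample that the comparison does not use, was nearer to the TD31 mean than to the TB31 mean at 509 of 509 called genes. Its DSP signal was 12.69 and its DSC3 signal was 7.38, beside TD31 means of 12.84 and 7.31, and both were far above the other arrays of its skin culture. The array labelled TB31c, also outside the comparison, lay at least 1 above both TB31a and TB31b at 409 genes and at least 1 below both at 690 genes. The profiles of both arrays thus went against their labels, and how this came about was not tested.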

How the results depend on the processing

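The counts of 242 genes higher and 267 lower were within 1.5 times of these values under all settings run except 3. In a fit of all 13 sources without TB31c they were 148 and 154, but 234 and 266 once C3806c and M106p1f, whose profiles go against their labels, were left out too. Testing against a difference of 1 (treat) gave 109 and 92, and a limit of 2 gave 56 and 48. With 1 array left out at a time 233 to 245 genes were higher and 264 to 280 lower. With the mean of all probe sets 207 were higher and 198 lower, and with the replicate block on the letters 248 and 257, of which 237 and 253 were shared. Nothing says that the letters pair the arrays. TD31a and TB31a deviated from their means with r = -0.02 across genes, and TD31b and TB31b with -0.15. With 2 TB31 arrays the deviations of TB31a and TB31b mirror each other, so these values do not test for a batch shared by letter.

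Of 99 named called genes 39 were lost in the fit of 13 sources and 1 (ID4) once the 2 further arrays were out. With TB31c included 12 were lost and 2 changed sign, TNNC2 (0.14) and SERPINB2 (-0.75). SYNPO2 differed by 0.08 on the probe set brightest over the 5 arrays. Of 49 named called genes with another probe set, the brightest other passed the limit the same way for 26 and stayed under it for 23. The causes of these changes were not tested.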

Other observations

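Further called genes, chosen after their values were seen, included NPY, JAG1 and PGR. NPY, a neuropeptide, averaged 8.75 in TD31 and 5.95 in TB31, a rise of 2.80 (limma adjusted p = 8.22e-10). JAG1, a Notch ligand, averaged 10.86 in TD31 and 8.74 in TB31 and rose by 2.12, and PGR, the progesterone receptor, averaged 5.15 in TD31 and 3.43 in TB31 and rose by 1.73. The genes set as markers of the skin fibroblasts of this series, NT5E, KLK8 and FGL2, were all higher in TD31. NT5E, the surface enzyme CD73, had signals of 10.30, 10.55 and 10.24 in TD31, against 8.03 and 8.12 in TB31, and rose by 2.29. KLK8 averaged 9.31 in TD31 and 7.63 in TB31, and FGL2 averaged 8.86 and 6.44. At each of these markers TB31 was below every sister array, TD31 lay within them and the TC31 mean was above the TD31 mean. By chromosome, leaving out Y with 0 of 4 genes called, the share of genes called ran from 1.47% on chromosome 19 to 6.84% on chromosome 17, against 3.60% of all genes. On chromosome 18, where DSC2, DSC3 and GATA6 lie, it was 5.17%, with 6 genes higher and 3 lower of 174. Chromosomes 8 (6.04%), 5 (5.77%) and 9 (5.72%) also had larger shares than chromosome 18.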
